A study of Macaca mulatta with 52 samples.

Results

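The transcripts described here encode 9 enzymes and enzyme subunits that carry pyruvate and cytosolic electrons into mitochondrial oxidation: PDHA1, PDHB and DLAT of the pyruvate dehydrogenase complex, CS, IDH3A, OGDH, SUCLG1 and MDH2 of the citrate cycle, and GPD2 of the glycerophosphate shuttle. They were taken by gene symbol, and all 9 had a named identifier among the 26309 identifiers of the deposited table, of which 15078 carried a name. The genes were chosen by their measured course over the stages in both kits, in particular the higher counts of PDHB and GPD2 in morulas than in 8-cell embryos. The differences between the 8-cell, morula and expanded blastocyst stages were part of that choice, so for these 9 genes they are given below as descriptions, with no test.

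The libraries came from single embryos of the rhesus monkey (Macaca mulatta), made by in vitro fertilisation of in vivo matured oocytes and freed of cumulus cells by pipetting. The labels name no genotype, and groups differ by stage (8-cell, morula, expanded or delayed blastocyst) and by kit. The protocols describe culture with or without relaxin, a peptide hormone, without naming the embryos that received it, so relaxin entered no comparison. RNA was amplified with either of 2 kits, called SPIA (linear amplification of cDNA) and SoLo (a low-input kit that depletes ribosomal sequences). SPIA libraries number 9 at the 8-cell stage, 11 from morulas and 14 from expanded blastocysts, with 2 more from delayed ones, and SoLo gave 4, 3 and 6 of the first 3 stages, mostly from embryos that SPIA had also covered. A whole embryo is a mixture of cells once it has formed a blastocyst, so in these data fewer cells of a type and less RNA per cell cannot be told apart.

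Pyruvate dehydrogenase turns pyruvate into acetyl-CoA inside the mitochondrion. Its E1 part is built from the PDHA1 alpha and PDHB beta chains, and DLAT is the E2 acetyltransferase at its core. Citrate synthase (CS) brings acetyl-CoA into the cycle, IDH3A is the catalytic chain of the NAD-dependent isocitrate dehydrogenase, OGDH starts the oxoglutarate step, SUCLG1 is the alpha chain of succinate-CoA ligase and MDH2 closes the cycle by regenerating oxaloacetate. GPD2 sits in the inner mitochondrial membrane and passes electrons from cytosolic glycerol 3-phosphate to the respiratory chain. Early mammalian embryos are known for relying on pyruvate before compaction and for using more glucose as they form a blastocyst.

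Total counts per library (M, mega) were between 0.601 and 21.0 M for SPIA, and SoLo gave 5.70 to 10.6 M. Levels are given as CPM, counts scaled to library size with TMM factors within a kit, and are compared between stages of a gene and not between genes, because gene lengths were not used. The summed level of 5 8-cell marker genes (ZSCAN4, LEUTX, TPRX1, KLF17 and H1-8) was 199 to 868 CPM in 8-cell SPIA libraries and at most 76.6 CPM in 10 of the 11 SPIA morulas. The exception, morula 022916_02, had 708 CPM and the largest total of all libraries. The 8-cell library 020816_09 also stood apart, with the lowest 8-cell marker sum of its group. The summed level of 11 cumulus cell markers was 386 to 1617 CPM in 3 of the 9 8-cell SPIA libraries (020816_06, 020816_07 and 112815_02), and its median was 18.1 CPM in morulas and 18.0 CPM in expanded blastocysts. Both SoLo libraries of code 111215, titled as embryos 01 and 03, contained transcripts of the Y-linked RPS4Y1 (169 CPM in each), whereas the SPIA library 111215_03 had 0.276 CPM, so that 1 of them did not match its title partner. Cumulus sums of 218 and 114 CPM in 8-cell libraries 011516_02 and 020816_09 were also above every morula (highest 75.9 CPM) and expanded blastocyst (highest 54.6 CPM) of SPIA. In 020816_09, 107 CPM of that sum came from TNFAIP6 alone. In SoLo only 020816_08 of the 4 8-cell libraries was low (20.6 CPM, the others 577 to 2262 CPM). Values without these libraries are given after the stage differences.

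Among the chains of pyruvate dehydrogenase, PDHB had the clearest step. In SPIA, its level was 0.912 CPM at the lowest, 47.9 CPM at the median and 160 CPM at the highest of 9 8-cell embryos, and 31.4, 381 and 846 CPM in 11 morulas. All morulas except 022916_02 lay above every 8-cell embryo. In SoLo, the 4 8-cell libraries had 58.5, 59.2, 61.7 and 82.3 CPM, the 3 morulas 356, 366 and 491 CPM, and the groups did not overlap. The difference was 2.68 ± 0.44 (log2 fold change ± SE, morula minus 8-cell) in SPIA and 2.63 ± 0.21 in SoLo, about 6.40-fold and 6.18-fold.

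Expanded blastocysts had PDHB levels from 197 to 489 CPM in SPIA, with a median of 372 CPM, and from 314 to 521 CPM in SoLo, with a median of 411 CPM. The coefficient of variation of PDHB over embryos was 74.8% at the 8-cell stage, 55.4% in morulas and 19.1% in expanded blastocysts of SPIA. In SoLo it was between 16.3% and 18.5% at every stage.

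**Figure D1:**
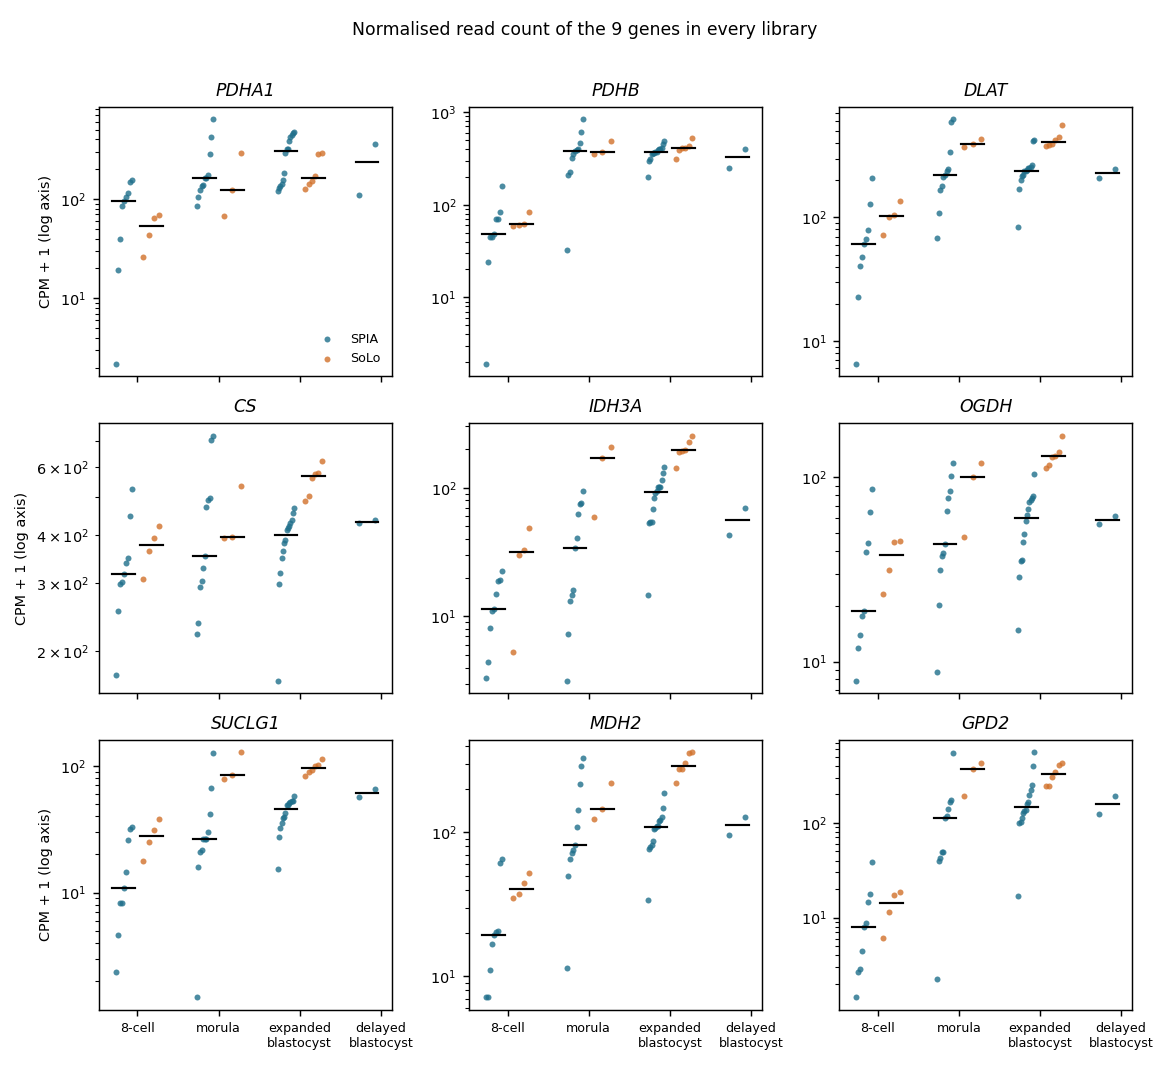
Normalised read count (CPM + 1, log axis) of the 9 genes in each library, by stage, coloured by kit (blue SPIA, orange SoLo), with black bars at group medians. PDHB and GPD2 step up from the 8-cell stage to the morula in both kits, CS moves least, and the SPIA morula at 31.4 CPM of PDHB and 1.23 CPM of GPD2 is 022916_02.

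PDHA1, the partner chain of PDHB and an X-linked gene in placental mammals, was more scattered. Its SPIA levels were 1.19, 94.4 and 156 CPM (lowest, median, highest) in 8-cell embryos, 84.5, 162 and 641 CPM in morulas and 119, 304 and 466 CPM in expanded blastocysts. In SoLo the 8-cell libraries had 24.9, 42.1, 63.2 and 68.7 CPM, the morulas 66.5, 121 and 291 CPM, and the expanded blastocysts 125 to 292 CPM with a median of 160 CPM. Morulas and 8-cell embryos overlapped in both kits, and the log2 difference between them was 1.39 ± 0.46 in SPIA and 1.68 ± 0.47 in SoLo.

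The scatter of PDHA1 within a stage moved with transcripts of Y-linked genes, a pattern noticed after its values were seen and given without a test. In the 7 expanded blastocysts of SPIA with at least 10 CPM of RPS4Y1, a Y-linked ribosomal protein gene, PDHA1 was 119 to 292 CPM, and in the 7 below it was 316 to 466 CPM. In SoLo, 4 such blastocysts had 125 to 170 CPM of PDHA1 and the other two 285 and 292 CPM. IDH3G and PDK3, X-linked genes of the same pathways, were looked at for the same pattern. In expanded blastocysts of SPIA the levels of IDH3G with RPS4Y1 at 10 CPM or above (2.93 to 20.1 CPM) overlapped those below it (3.09 to 33.1 CPM), and so did those of PDK3, at most 7.76 CPM in any of them. The 2 delayed blastocysts had 109 CPM of PDHA1 beside 262 CPM of RPS4Y1, and 357 CPM beside 0.404 CPM.

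The same order held less cleanly at earlier stages. Among SPIA 8-cell embryos, PDHA1 was 18.4 to 94.4 CPM in the 4 with RPS4Y1 at 10 CPM or above and 104 to 156 CPM in 4 of the 5 below it, the fifth being 020816_09 at 1.19 CPM. In SPIA morulas the ranges overlapped, at 84.5 to 162 CPM in 4 libraries and 103 to 641 CPM in 7. All 4 SoLo 8-cell libraries had RPS4Y1 above 10 CPM, against 1 of 3 morulas and 4 of 6 expanded blastocysts, so that the stage difference of PDHA1 in SoLo moves with these transcripts, and their part in it was not tested. That difference was 0.92 without morula 022916_01, 1.46 without 8-cell 020816_07 and 1.62 without 020816_08, and in none of these would it be called. Within the libraries above 10 CPM, PDHA1 of SoLo was 24.9 to 68.7 CPM at the 8-cell stage, 66.5 CPM in the morula and 125 to 170 CPM in expanded blastocysts.

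**Figure D2:**
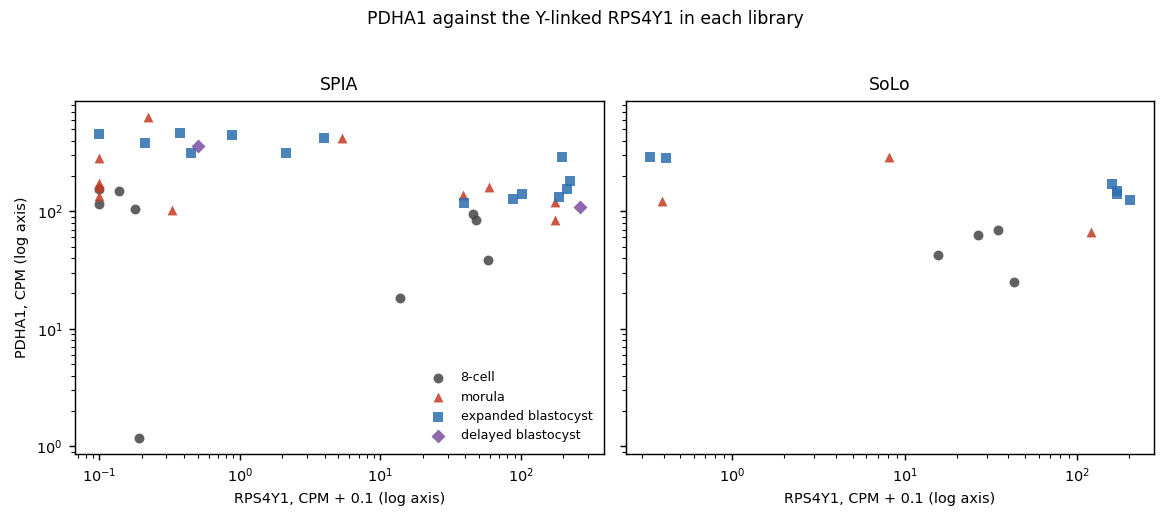
PDHA1 (CPM, log axis) against the Y-linked RPS4Y1 (CPM + 0.1, log axis) in every library of SPIA (left) and SoLo (right), with the stage given by colour and symbol. Expanded blastocysts with RPS4Y1 of 38.9 CPM or above lie between 119 and 292 CPM of PDHA1 in SPIA, and those at 3.85 CPM or below lie between 316 and 466 CPM.

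DLAT followed the course of PDHB at a smaller step. In SPIA it was 5.51, 60.4 and 208 CPM (lowest, median, highest) in 8-cell embryos and 66.8, 220 and 630 CPM in morulas, with a log2 difference of 1.90 ± 0.42. In SoLo the 8-cell libraries had 71.2, 99.7, 103 and 135 CPM and the morulas 371, 392 and 435 CPM, with no overlap and a difference of 1.96 ± 0.22. The 8-cell embryo 020816_09, lowest in PDHA1 and PDHB, was the highest of its group in DLAT, so that its low values were not shared by the whole complex.

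CS was the member that moved least. Its SPIA median was 316 CPM in 8-cell embryos, 351 CPM in morulas and 399 CPM in expanded blastocysts, with ranges of 172 to 524, 220 to 722 and 167 to 468 CPM that overlapped throughout. In SoLo the 8-cell libraries had 306, 362, 391 and 420 CPM, the morulas 392, 393 and 533 CPM and the expanded blastocysts 489 to 621 CPM. The log2 difference between morula and 8-cell was 0.33 ± 0.25 in SPIA and 0.25 ± 0.18 in SoLo.

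IDH3A was low in 8-cell embryos and differed widely among morulas. SPIA levels were 2.32, 10.4 and 21.6 CPM (lowest, median, highest) at the 8-cell stage, 2.16, 33.0 and 92.8 CPM in morulas and 13.7, 91.0 and 144 CPM in expanded blastocysts. SoLo 8-cell libraries had 4.30, 28.9, 31.9 and 47.3 CPM, morulas 58.5, 169 and 205 CPM and expanded blastocysts 142 to 254 CPM. Morulas overlapped the 8-cell range in SPIA and lay above it in SoLo, with log2 differences of 1.72 ± 0.52 and 2.36 ± 0.56.

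OGDH and SUCLG1 were also overlapping in SPIA and separate in SoLo. OGDH had SPIA medians of 17.7 CPM at the 8-cell stage and 42.3 CPM in the morulas, while SoLo gave 22.4 to 44.2 CPM and 46.3, 99.3 and 118 CPM. SUCLG1 had SPIA medians of 9.87 and 25.3 CPM, while SoLo gave 16.7 to 37.3 CPM at the 8-cell stage and 77.0, 83.4 and 127 CPM in morulas. The log2 differences of OGDH were 0.77 ± 0.47 in SPIA and 1.33 ± 0.31 in SoLo, and those of SUCLG1 were 1.30 ± 0.56 and 1.83 ± 0.29. One morula, 022916_03, had the highest PDHA1, PDHB and GPD2 of its group and the lowest SUCLG1, at 0.488 CPM.

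MDH2 was 6.15, 18.4 and 64.9 CPM (lowest, median, highest) in SPIA 8-cell embryos and 10.5, 80.4 and 327 CPM in morulas. In SoLo the 8-cell libraries had 33.9, 36.2, 43.2 and 51.2 CPM and the morulas 123, 145 and 218 CPM, without overlap. The log2 differences were 2.40 ± 0.48 and 1.98 ± 0.25. Expanded blastocysts of SoLo went on to 218 to 359 CPM, each above the first 2 morulas and the lowest just above the third, whereas those of SPIA (32.8 to 187 CPM) lay within the range of the morulas.

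GPD2 showed the largest step of the 9. In SPIA it was 0.435, 7.02 and 37.5 CPM (lowest, median, highest) in 8-cell embryos, 1.23, 112 and 542 CPM in morulas and 16.0, 146 and 555 CPM in expanded blastocysts. All morulas but 022916_02 lay above the highest 8-cell embryo, though the next lowest, 38.2 CPM, did so narrowly. In SoLo the 8-cell libraries had 5.02, 10.3, 16.4 and 17.5 CPM and the morulas 191, 373 and 430 CPM, an interval in which no library fell between the groups. The log2 difference was 3.69 ± 0.69 in SPIA and 4.75 ± 0.40 in SoLo, about 12.9-fold and 26.9-fold.

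By the same rule as for other genes, 6 of the 9 members would be called higher in morulas than in 8-cell embryos in SPIA and 8 in SoLo, where 9.06% and 9.78% of all genes tested were called higher and 19.4% and 16.7% were called in either direction. Since this difference chose the genes, nothing is read from these counts. CS would be called in neither kit, and OGDH and SUCLG1 only in SoLo. The median log2 difference of the 9 was 1.72 in SPIA and 1.96 in SoLo, beside -0.14 and -0.06 over all genes tested. In SoLo, 7 of the 9 groups did not overlap, PDHA1 and CS being the others (11.5% of all genes lay wholly higher), and in SPIA none of the 9 was free of overlap (0.0835% of all genes).

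Without 8-cell 020816_09 and morula 022916_02 the SPIA count was also 6, with log2 differences of 2.64 for PDHB, 3.77 for GPD2, 2.37 for DLAT, 2.40 for MDH2 and 1.27 for PDHA1. Without the 3 8-cell embryos of highest cumulus marker sum it was 5, PDHA1 (1.25) being the one lost, and PDHB was at 2.55 and GPD2 at 4.20. Without 011516_02 and 020816_09 as well it was again 5, with PDHB at 2.76, GPD2 at 3.99 and DLAT at 2.79. In SoLo, leaving out the 3 high 8-cell libraries left 1, against which the morulas differed by 2.79 for PDHB, 4.25 for GPD2 and 5.07 for IDH3A, the last of which was 2.36 with all 4, and PDHA1 (1.93) would no longer be called.

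The stage and the title code, a 6-digit number that embryos share, go together: only code 020816 holds both 8-cell embryos and morulas of SPIA. Within it, 5 8-cell embryos had 0.912 to 69.6 CPM of PDHB and 3 morulas 210 to 604 CPM, and GPD2 was 0.435 to 37.5 CPM against 48.0 to 140 CPM. The log2 differences there were 3.43 for PDHB and 3.56 for GPD2, and none of the 9 would be called, at 4 calls (0.0356%) among all genes of that fit.

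**Figure D3:**
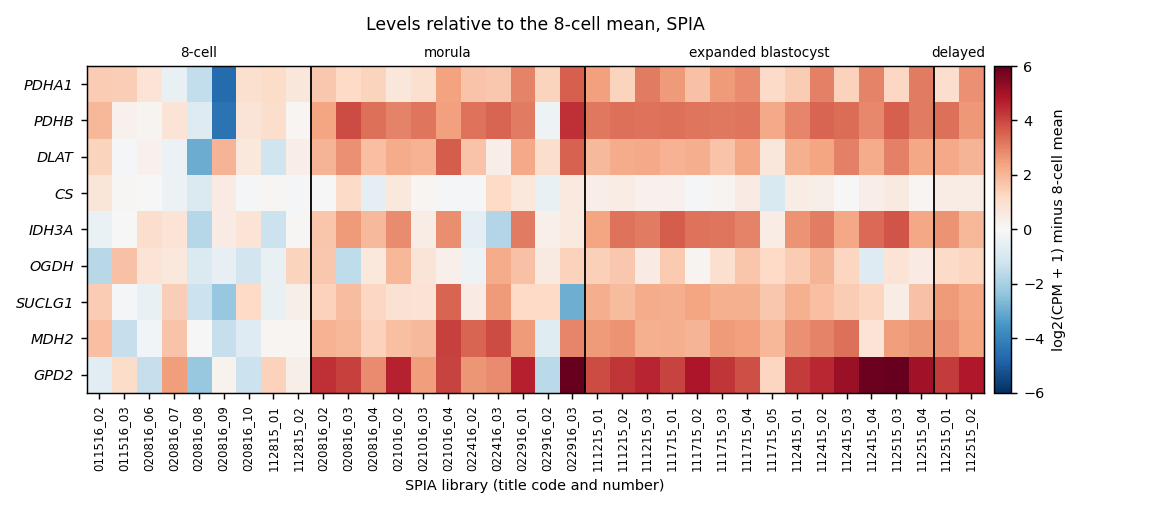
Level of each of the 9 genes in each SPIA library as log2(CPM + 1) minus the mean of the 8-cell embryos, red above and blue below it, with stages separated by black lines. Morula 022916_02 keeps all 9 genes within the 8-cell range, and the 8-cell embryo 020816_09 is low in PDHA1 and PDHB alone among the pyruvate dehydrogenase chains.

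The library plot gives the levels of the 9 genes in single embryos. Of the 11 SPIA morulas, 10 had between 3 and 7 of the 9 genes above the highest 8-cell embryo, and 022916_02 had 0. Among expanded blastocysts, the lowest count was 3 of 9 in 111715_05, the library with the fewest counts of all (0.601 M), and the others had 5 to 8. In SoLo, all 6 expanded blastocysts had 9 of 9 above the 8-cell range, and the 3 morulas had 7, 8 and 9. Of all genes, 17.9% had every SoLo expanded blastocyst above that range and 11.5% every SoLo morula, against 1.18% and 0.0835% in SPIA. Shares over all genes for single libraries are not given. Since the stage course chose the genes, nothing is read from these counts.

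Between morula and expanded blastocyst most of the 9 differed little. By the rule used for other genes, none of the 9 would be called by edgeR in either kit, where 14.7% of all genes tested were called in SPIA and 1.14% in SoLo. The largest difference in SPIA was that of IDH3A, 1.15 ± 0.46 on the log2 scale, and in SoLo it was 0.47 ± 0.52. The largest in SoLo was that of MDH2, 0.87 ± 0.24, with all 6 blastocysts above the 3 morulas (6.12% of all genes lay so), and in SPIA it was -0.29 ± 0.40.

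Each of these would be called under other settings. IDH3A in SPIA would pass by DESeq2 (1.21) and voom (1.94) and, by edgeR, without morula 022916_01 (1.36), and MDH2 in SoLo would pass by DESeq2 (0.90), by voom (0.90) and without the same morula (1.15). The differences of PDHB were -0.06 ± 0.36 in SPIA and 0.03 ± 0.19 in SoLo, those of GPD2 0.56 ± 0.54 and -0.02 ± 0.33, and those of OGDH 0.01 ± 0.42 and 0.58 ± 0.30. The median of the 9 was 0.01 in SPIA and 0.28 in SoLo, beside -0.29 and 0.05 over all genes. Without both SoLo libraries of code 111215, MDH2 was at 0.79, PDHB at 0.096 and GPD2 at -0.15.

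Against the 8-cell embryo, the same rule would call 7 of the 9 higher in expanded blastocysts of SPIA and 9 of 9 in those of SoLo. Of all genes tested, 12.9% were called higher and 36.6% in either direction in SPIA, and 18.6% and 38.4% in SoLo. Since the stage course chose the genes, nothing is read from these counts. The summed level of trophectoderm markers (GATA2, GATA3, KRT18, ENPEP and TFAP2C) moved with this comparison. It was 4.01 to 323 CPM in 8-cell embryos and 114 to 1217 CPM in expanded blastocysts of SPIA. In SoLo it was 203 to 294 CPM against 1543 to 2828 CPM. TFAP2C alone did not follow the sum, with means of 143 and 82.5 CPM in SPIA and 216 and 225 CPM in SoLo. The part of these markers in these results was not tested. In SPIA the log2 difference was 4.25 ± 0.70 for GPD2, 2.87 ± 0.54 for IDH3A and 2.62 ± 0.43 for PDHB, and PDHB was the only member whose 14 blastocysts all lay above the 9 8-cell embryos (1.18% of all genes did so). It was 2.11 ± 0.46 for MDH2, 1.77 ± 0.40 for DLAT, 1.75 ± 0.45 for PDHA1 and 1.52 ± 0.54 for SUCLG1. CS, at 0.18 ± 0.24, and OGDH, at 0.78 ± 0.45, would not be called.

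In SoLo the same differences were 4.73 ± 0.38 for GPD2, 2.85 ± 0.23 for MDH2, 2.83 ± 0.53 for IDH3A, 2.65 ± 0.20 for PDHB, 2.07 ± 0.20 for DLAT, 1.96 ± 0.43 for PDHA1, 1.90 ± 0.28 for OGDH, 1.83 ± 0.26 for SUCLG1 and 0.58 ± 0.16 for CS. In each of the 9, the 6 blastocysts lay above all 4 8-cell libraries, as did 17.9% of all genes. Without the 3 8-cell embryos of highest cumulus marker sum, SUCLG1 in SPIA (1.57, and 1.77 without the 5 highest) and PDHA1 in SoLo (2.20, with 1 8-cell library left) would no longer be called, and IDH3A in SoLo was at 5.53. Without both SoLo libraries of code 111215, CS was at 0.50 and would no longer be called, while GPD2 was at 4.59 and PDHB at 2.70.

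**Figure D4:**
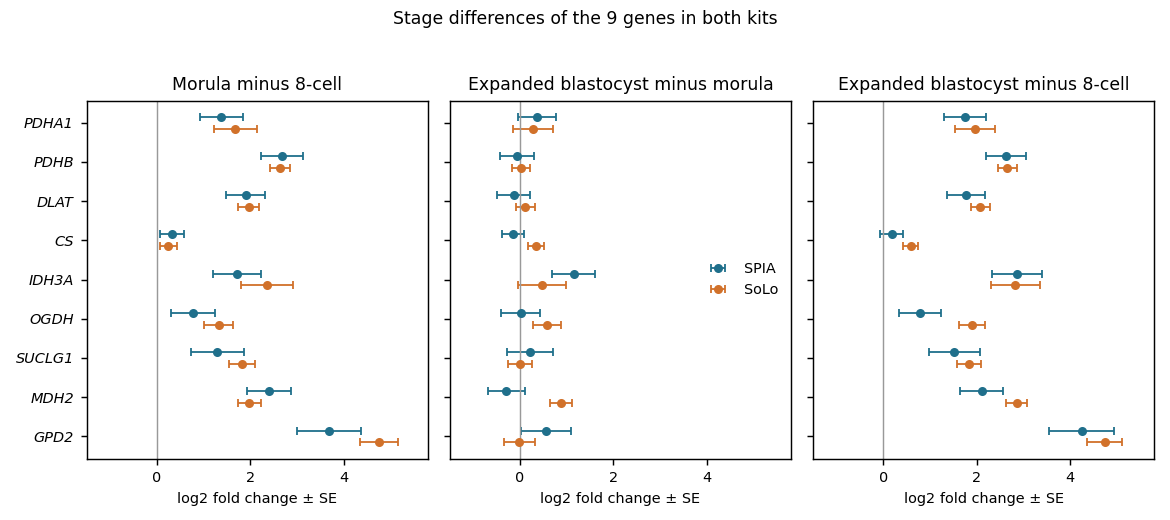
Log2 fold change ± SE of the 9 genes for morula minus 8-cell, expanded blastocyst minus morula and expanded blastocyst minus 8-cell, coloured by kit (blue SPIA, orange SoLo). The differences between morula and expanded blastocyst lie between -0.29 and 1.15, the highest being IDH3A in SPIA (1.15) and MDH2 in SoLo (0.87), and those from the 8-cell stage are largest for GPD2 in both kits.

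The delayed blastocysts, 2 SPIA libraries of code 112515, did not differ detectably from the 14 expanded ones. PDHB was 246 and 401 CPM, GPD2 was 124 and 190 CPM and DLAT was 209 and 248 CPM, all within the range of the expanded blastocysts. SUCLG1 in 1 of them, 64.8 CPM, was above the highest expanded blastocyst (57.0 CPM), and PDHA1 in 1, 109 CPM, was below the lowest (119 CPM). None of the 9 was called, nor was any gene tested (0%). At an unadjusted p under 0.05 edgeR called 0 of the 9, and DESeq2 and voom also called none of the 9 (DESeq2 called 22 genes in all). The SEs of the 9 differences were 0.42 to 1.03 on the log2 scale.

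Ratios of partner chains within a library do not depend on the scaling factors of libraries. Because 1 was added to each count, such ratios still depend on depth where a count is near 0. Those that hold one of the 9 genes are descriptions. Log2 of PDHB to PDHA1 counts (each + 1) was -0.43 ± 0.76 (SD, n = 9) in 8-cell embryos, 0.77 ± 1.30 (n = 11) in morulas and 0.54 ± 0.79 (n = 14) in expanded blastocysts of SPIA. In SoLo the means were 0.49 ± 0.62 (n = 4), 1.59 ± 0.83 (n = 3) and 1.16 ± 0.54 (n = 6). Expanded blastocysts exceeded 8-cell embryos by 0.97 in SPIA and 0.67 in SoLo, and the PDHB to PDHA1 ratio carries the scatter of PDHA1 with RPS4Y1 described above.

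For the catalytic IDH3A against IDH3B, a companion chain of the same enzyme, the log2 ratio was -2.75 ± 1.68 (n = 4) in 8-cell embryos and -0.25 ± 0.54 (n = 6) in expanded blastocysts of SoLo. In SPIA the means were -1.45 ± 2.74 (n = 9) and 0.15 ± 0.91 (n = 14), a difference of 1.61. The 8-cell library 020816_09 was at 5.28, far above the next at -0.66, and without it the SPIA difference was 2.45.

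SUCLG1 pairs with either of 2 beta chains, SUCLA2 for the ATP-forming and SUCLG2 for the GTP-forming ligase, and these parted. SUCLA2 in SoLo was 68.5 to 147 CPM at the 8-cell stage, 196, 233 and 246 CPM in morulas and 203 to 258 CPM in expanded blastocysts. SUCLG2 was 13.1 to 32.6 CPM, then 8.50, 14.6 and 35.0 CPM, then 61.9 to 97.2 CPM. SUCLA2 thus lay above the 8-cell range in all 3 morulas, whereas SUCLG2 lay around it, with 1 morula below, 1 within and 1 above, and in blastocysts both genes lay above it.

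The log2 ratio of SUCLG2 to SUCLA2 was -3.77 ± 0.87 (n = 3) in SoLo morulas and -1.52 ± 0.27 (n = 6) in expanded blastocysts, a rise of 2.25 (exact permutation p = 0.0119, adjusted p = 0.0286, adjusted over all 12 comparisons of ratios). In SPIA it was -4.90 ± 3.69 (n = 11) and -1.42 ± 0.78 (n = 14), a rise of 3.48 (permutation p = 0.00087, adjusted p = 0.00745). It also exceeded the 8-cell mean of -3.64 ± 2.06 (n = 9) in SPIA by 2.22 (exact permutation, adjusted p = 0.00745), but not that of SoLo, -2.09 ± 0.93 (n = 4), where the difference was 0.58 (exact permutation, adjusted p = 0.178). The SoLo difference from morulas was 1.88 to 2.73 with any 1 library left out. It was not called without any 1 of the 3 morulas (exact permutation, adjusted p = 0.0857 each). The same held without both libraries of code 111215 (2.23, exact permutation, adjusted p = 0.0686). In these subsets the groups were too small for any exact permutation p to be called after adjustment, so they could not decide the call. The SPIA difference from 8-cell embryos was no longer called without the 3 (1.66, exact permutation, adjusted p = 0.067) or 5 (1.24, exact permutation, adjusted p = 0.126) 8-cell embryos of highest cumulus marker sum. The lowest SPIA morula ratios, -10.5, -10.1 and -8.37, came from the deepest morula libraries, 020816_04, 022916_03 and 022916_02 (16.8, 20.1 and 21.0 M counts). Expanded blastocysts of SPIA had at most 11.7 M, and the part of depth in the SPIA rise was not tested.

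**Figure D5:**
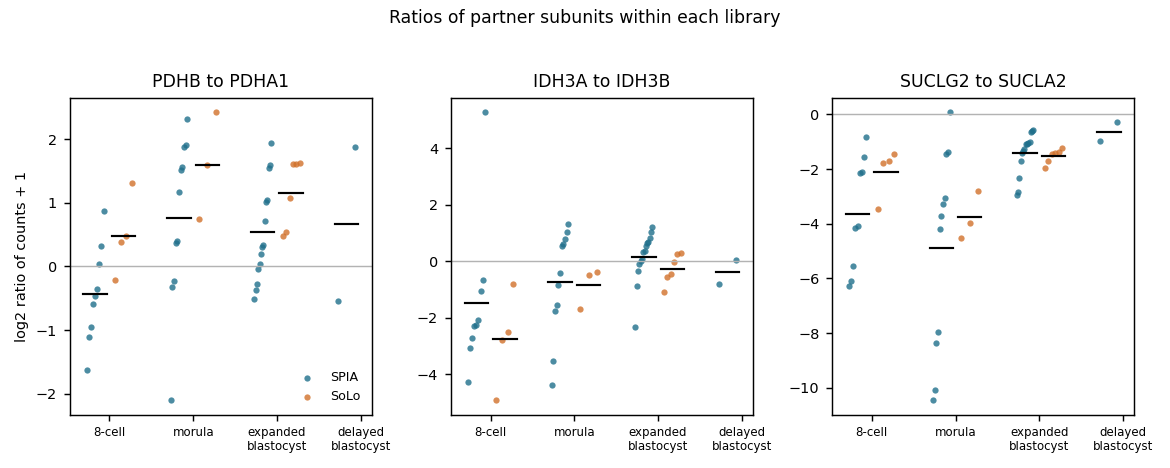
Log2 ratio of counts (each + 1) of PDHB to PDHA1, IDH3A to IDH3B and SUCLG2 to SUCLA2 in each library by stage, coloured by kit (blue SPIA, orange SoLo), with black bars at group means. The mean SUCLG2 to SUCLA2 ratio is lower in morulas (-4.90 in SPIA, -3.77 in SoLo) than in expanded blastocysts (-1.42 and -1.52).

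The 9 genes were set beside 42 other genes of the same pathways (44 were listed, and PDHA2 and LIPT1 had no named identifier). Between the morula and the 8-cell embryo, 6 of 42 were called higher and 1 lower in SPIA, and 15 of the 41 tested were higher and 1 lower in SoLo. In SPIA that is 16.7% of them, below the 19.4% called among all genes, and in SoLo it is 39.0%, beside 16.7%. DLD, PDP2, FH and MDH1 were called higher in both kits. DLD, the E3 chain that pyruvate and oxoglutarate dehydrogenase share, rose by 2.09 ± 0.40 in SPIA (adjusted p = 0.000432) and 1.70 ± 0.23 in SoLo (adjusted p = 0.000123). PDP2, a phosphatase that switches pyruvate dehydrogenase on, was 0 to 6.71 CPM at the 8-cell stage of SPIA and 5.67 to 304 CPM at the morula stage, a rise of 4.34 ± 0.80 (adjusted p = 0.000314), and it rose by 3.33 ± 0.91 in SoLo (adjusted p = 0.0263).

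In SPIA the other named changes were rises of LIPT2 (4.99 ± 1.43), which makes lipoate for the E2 chains, SLC25A13 (3.75 ± 0.95), an aspartate carrier of the malate-aspartate shuttle, MDH1 (1.82 ± 0.58), the cytosolic malate dehydrogenase, and FH (1.68 ± 0.62), fumarase. LIPT2 was low even so, with a median of 0.340 CPM in morulas. PCK2, the mitochondrial phosphoenolpyruvate carboxykinase, was called lower, but 7 of 9 8-cell embryos and 10 of 11 morulas had no count of it.

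SoLo added the pyruvate carrier subunit MPC1, listed at 0 in all 4 8-cell libraries and at 0.458, 0.586 and 1.18 CPM in morulas. An assumed floor of 3 counts per library allowed up to 0.399 CPM at the 8-cell stage, and the morulas had only 4 to 9 counts. Under that floor, mean MPC1 was at least 1.86-fold higher in morulas and at least 9.10-fold higher in expanded blastocysts (mean 3.63 CPM). The SPIA median of MPC1 did not rise to the morula. At the 8-cell stage it was 0.132 CPM. Morulas had a median of 0.122 CPM, with 5 of 11 at 0, and expanded blastocysts one of 0.903 CPM. The SPIA means were 0.639, 1.06 and 1.06 CPM in the same order. Others that rose in SoLo were GOT1 (2.55 ± 0.51), an aspartate aminotransferase, PDHX (1.86 ± 0.33), which binds E3 to the complex, SDHA (1.86 ± 0.34), the flavoprotein of succinate dehydrogenase, ACO1 (1.84 ± 0.35) and ME2 (1.74 ± 0.34). PDHX differed by -0.71 ± 0.45 in SPIA (adjusted p = 0.269), opposite in sign to SoLo. PDPR, a regulatory partner of the phosphatase and outside the naming rule, was the gene called lower in SoLo (-1.66 ± 0.47, adjusted p = 0.0224).

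Between expanded blastocyst and morula, 0 of 42 other pathway genes were called in SPIA by edgeR (5 at an unadjusted p under 0.05, 3 by DESeq2 and 5 by voom) and 1 of 41 (2.44%) in SoLo, beside 14.7% and 1.14% of all genes. The one was SUCLG2, which rose by 2.09 ± 0.42 (adjusted p = 0.0247), and its SPIA difference was 2.04 ± 0.86 (adjusted p = 0.0978). No pathway gene was called in SoLo without any 1 of 6 libraries (2 of the 3 morulas and 4 of the 6 blastocysts) or without both libraries of code 111215, and 6 were called without morula 022916_01. Against the 8-cell embryo, 9 were higher and 5 lower in SPIA and 22 higher and 3 lower in SoLo, with 8 higher and 3 lower in both kits. In SPIA the 14 are 33.3% of the list, below the 36.6% of all genes, and in SoLo the 25 are 61.0%, beside 38.4%. Among the genes higher in both, SLC25A13 (5.37 ± 1.02 in SPIA, 4.04 ± 0.93 in SoLo), PDP2 (3.87 ± 0.77 and 2.99 ± 0.84) and GOT1 (3.09 ± 0.97 and 2.95 ± 0.48) rose most. The genes lower in both were PDK2, a kinase that switches pyruvate dehydrogenase off, ME3 and GPD1L. In SPIA, ME3 had no count in 5 of 9 8-cell embryos and 12 of 14 expanded blastocysts, and its highest 8-cell value was 5.10 CPM. PDK2 fell by 3.50 ± 1.33 in SPIA (adjusted p = 0.0344) and by 3.74 ± 1.38 in SoLo (adjusted p = 0.0412), and its SPIA median was 0.092 CPM at the 8-cell stage and 0.141 CPM in expanded blastocysts, the 8-cell mean being set by a library at 55.7 CPM. GPD1L, related to the cytosolic partner of GPD2, fell by 2.04 ± 0.79 (adjusted p = 0.0378) and 1.28 ± 0.44 (adjusted p = 0.0312). GPD1, the cytosolic glycerol-3-phosphate dehydrogenase itself, had medians under 0.7 CPM at the 8-cell, morula and expanded blastocyst stages in both kits.

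DLST, the E2 chain that works with OGDH, was 54.1 to 500 CPM in 8-cell embryos and 17.7 to 110 CPM in expanded blastocysts of SPIA and fell by 1.71 ± 0.42 (adjusted p = 0.0015). In SoLo its difference was -0.24 ± 0.23 (adjusted p = 0.439), and the kit dependence of DLST is not given here. OGDHL, a paralog of OGDH, rose by 2.43 ± 0.99 in SPIA (adjusted p = 0.0487). Leaving out the 3 or the 5 8-cell embryos of highest cumulus marker sum moved the count of other pathway genes in SPIA from 14 to 9, and leaving out the 5 moved that between morula and 8-cell from 7 to 4.

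The kits were compared over 13 libraries each with stage but no embryo block in the model, under one scaling of both. The libraries of code 111215, of which 1 did not match its title partner, were among them. PDHA1, PDHB and CS were lower in SoLo and the other 6 were not called, where 23.3% of all genes were called in either direction and 11.4% lower in SoLo. PDHA1 had 301 ± 229 CPM in SPIA and 110 ± 73.0 CPM in SoLo (SD, n = 13 each), a difference of -1.37 ± 0.28 (adjusted p = 0.00049). PDHB differed by -0.67 ± 0.13 (adjusted p = 0.000313) and CS by -0.52 ± 0.12 (adjusted p = 0.00183). Over the 11 embryos with a matching library in both kits, which leave out code 111215, SoLo was lower in 10 embryos for PDHA1, 10 for PDHB and 11 for CS, but also in 10 for OGDH and 9 for DLAT, which were not called, and in 2 to 4 for the remaining genes. The differences of PDHA1, PDHB and CS over these embryos alone were -1.23, -0.66 and -0.59 without a block, each called. With the embryo as a block they were -1.14, -0.64 and -0.57, each called as well.

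Whether the stage differences depend on the kit was fitted as an interaction. The course in both kits was part of the choice of the 9 genes, so for them the values are descriptions. By the rule for other genes, none of the 9 would be called for any of the 3 pairs of stages (0%, 0.0336% and 0% of all genes were). Nothing is read from this, and an uncalled interaction does not show equal courses in both kits. The nearest to a call was OGDH, whose difference between expanded blastocyst and 8-cell embryo was 1.35 ± 0.53 larger in SoLo. For PDHB the kits differed by -0.47 ± 0.30 and for GPD2 by 0.98 ± 0.93 in the same comparison.

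Genes with the most similar course were sought among 10975 named genes over the 49 libraries, by the root mean square distance of log2(CPM + 1) centred within each kit. Nearest PDHB were SPTBN1 (distance 0.645), a spectrin chain, LDHB (0.718), a lactate dehydrogenase chain, and GTF2I (0.747), where the SD of PDHB itself was 1.60. LDHB had mean levels of 67.8, 243 and 307 CPM in SPIA and 70.2, 231 and 345 CPM in SoLo from 8-cell embryo to morula to expanded blastocyst. Nearest GPD2 were LYN (1.12), a tyrosine kinase, UBASH3B (1.13) and NLRP7 (1.19), where the SD of GPD2 was 2.29. The libraries share depth and scaling, and these distances are descriptions.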

How the data were processed

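Single-embryo RNA-seq libraries, 49 in all, were analysed from a table that the authors deposited as raw whole-number read counts, without normalisation. HISAT2 and DESeq2 stand in the submitters' processing notes without versions. Which counter, build and strand setting were used is not given in the sources used here. Genes that overlap or have near copies may share counts. Of the 52 columns, 47 were matched to samples by title and 2 (code 111215, SoLo) by group. The other 3 columns were left unused, and 3 samples were not analysed here. The planned SoLo fits had counted on libraries that proved to have no matching column. No genome was used, and no sequences or coordinates are given.

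Tests on counts used edgeR 4.0.16 under R 4.3.3 (robust quasi-likelihood fit, TMM scaling, filterByExpr). P-values were adjusted by Benjamini-Hochberg over all genes tested (15578 in SPIA, 14196 in SoLo, 14873 across kits), a call needed an adjusted p under 0.05, and all stages of a kit shared a fit. Each SE is the log2 fold change divided by the root of F. The fit was tested on simulated morula and 8-cell counts with a single spread set for all genes and both kits. That spread was not estimated from the libraries. In SPIA it called 60% of 4-fold and 100% of 16-fold changes. In SoLo it called 1% and 64%. The fit of the real SoLo counts called 16.7% of all genes between these stages, so the simulated shares do not give its power. With 4 and 3 libraries, an uncalled difference in SoLo still does not show equal levels. Alternatives were DESeq2 1.42.0, limma 3.58.1 (voom), other scalings and filters, and subsets of libraries. Leaving out the 5 8-cell embryos of highest cumulus sum, code 111215, or 020816_09 with 022916_02, and the paired embryos without a block, were chosen after seeing the data. Two-sided permutation tests of ratios ran in Python 3.11.15, by full enumeration below 10 libraries in a group and by 100000 resamples above.

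The 9 genes and the pathway and marker lists were chosen with earlier results of these data known. The text names all 9 genes, up to 8 called pathway genes of largest change per comparison, and the 3 genes nearest PDHB and GPD2. RPS4Y1 and other genes beyond that rule were named after their values were seen. Libraries of a group are labelled as separate embryos, their p-values measure the spread between these embryos, and no pair within a group agreed within sampling noise. Libraries of both kits with matching titles were treated as pairs. Over 11 pairs the deviations from group means correlated at a median of 0.191, with 10 of 11 above 0.1 and a lowest of -0.018. Summed markers of sperm and blood were at most 29.0 and 64.2 CPM in any library.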

Additional observations from a re-analysis of the deposited data

Results flagged for a closer look

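In 5 of 36 groups of 4 to 9 libraries tested, a single library lay farther from the rest than Dixon's 95% limit allows, where chance flags about 1 in 20 groups. In SPIA, the 8-cell embryo 020816_09 was lowest in PDHA1 at 1.19 CPM (next 18.4 CPM) and in PDHB at 0.912 CPM, and highest in the log2 ratio of IDH3A to IDH3B at 5.28 (next -0.66). In SoLo, the 8-cell library 112815_02 was highest in PDHB at 82.3 CPM (next 61.7 CPM) and lowest in the log2 ratio of SUCLG2 to SUCLA2 at -3.47 (next -1.77). It is also 1 of the 3 8-cell embryos of highest cumulus marker sum. The part of these markers in its values was not tested.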

How the results depend on the processing

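Of 2307 recomputed values, 2130 kept their direction and their side of the threshold (counts within 1.5 times). In the comparisons of morula with 8-cell and of expanded blastocyst with 8-cell, no direction of any of the 9 genes was reversed. The causes of the changes below were not tested, except that fits within a code or a depth class hold fewer libraries.

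For morula against 8-cell in SPIA, 0 members and 0 other pathway genes would be called within code 020816 or above 12 M counts, where 0% of all genes were called in the second case, and 2 other pathway genes with the compared groups alone (10 in SoLo) and 4 without the 5 8-cell embryos of highest cumulus marker sum. For expanded blastocyst against morula in SPIA, members that would be called were 1 by DESeq2, 1 by voom and 2 by voom with code as a block (estimated correlation within codes -0.034), and other pathway genes 3, 5 and 6, with 1 each without a filter, with groups alone and under 12 M counts. In SoLo these 3 fits called 1 member and 2 other pathway genes. Other pathway genes for expanded blastocyst against 8-cell in SPIA were 9 without the 3 and 9 without the 5 such embryos, and in SoLo 0 were called against morula without both libraries of code 111215. Leaving out 1 library gave 0 to 1 members in each kit, 0 to 2 (SPIA) and 0 to 6 (SoLo) other pathway genes against morula, and 9 to 18 against 8-cell in SPIA, the lowest without expanded blastocyst 111215_02. In SoLo the count was 0 without morula 021016_02, 021016_03, or blastocysts 111215 (first column), 111715_01, 111715_02 or 111715_04, and 6 without morula 022916_01.

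Reversals concerned uncalled differences. For expanded blastocyst minus morula in SPIA, PDHB was 0.094 by DESeq2 and with its size factors, 0.57 by voom and 0.58 with the code block, DLAT 0.0097, 0.0092, 0.24 and 0.22, CS 0.21 and 0.21 by both voom fits, MDH2 0.53 and 0.52, OGDH -0.038 without 020816_09 and 022916_02 and -0.11 under 12 M counts, and SUCLG1 -0.099 there. In SoLo, SUCLG1 was 0.023 by DESeq2 and its size factors and 0.059 and 0.066 by the voom fits, and 0.017 without code 111215, and GPD2 was 0.012 by DESeq2 and its size factors. For delayed minus expanded, OGDH was -0.015 with a stricter filter and GPD2 0.069 with the code block. Between kits, DLAT was 0.0075 with DESeq2 size factors and 0.0072 by DESeq2, and MDH2 -0.024 over the paired embryos alone.

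With 1 library left out, ranges that crossed 0 were, for delayed minus expanded, DLAT -0.25 to 0.00087, MDH2 -0.15 to 0.26, OGDH -0.054 to 0.12, PDHA1 -1.37 to 0.33 and PDHB -0.59 to 0.12. For expanded minus morula they were, in SPIA, DLAT -0.24 to 0.069, OGDH -0.11 to 0.18 and PDHB -0.18 to 0.13, and in SoLo DLAT -0.0001959 to 0.18, GPD2 -0.31 to 0.22, PDHA1 -0.089 to 1.05, PDHB -0.055 to 0.19 and SUCLG1 -0.13 to 0.24.

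With the embryo as a replicate block, the kit difference was -1.14 for PDHA1, -0.64 for PDHB and -0.57 for CS, and GPD2 was 0.31 (adjusted p = 0.678). The block changed no call of the 9.

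Among ratios of expanded blastocyst against 8-cell, IDH3A to IDH3B in SPIA would pass with a pseudocount of 5 (1.68) and without the 5 embryos (3.07). Without the 3 embryos, PDHB to PDHA1 was 0.98 in SPIA, and IDH3A to IDH3B was 4.65 in SoLo, where 1 8-cell library was left. SUCLG2 to SUCLA2 was then 1.66 in SPIA and no longer called, and -0.085 in SoLo. Without the 5, PDHB to PDHA1 was 1.12 in SPIA, and SUCLG2 to SUCLA2 was 1.24 and no longer called. Without code 111215, IDH3A to IDH3B was 2.77 in SoLo. Against morula, SUCLG2 to SUCLA2 was then 2.23 in SoLo, with groups too small for the exact test to call it. With 1 library left out, differences from 8-cell ranged from 1.25 to 2.45 (IDH3A to IDH3B) and 0.82 to 1.13 (PDHB to PDHA1) in SPIA and from 1.77 to 3.14 and 0.44 to 0.94 in SoLo, and SUCLG2 to SUCLA2 against morula in SoLo from 1.88 to 2.73.

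Among calls of single genes, PDHA1 (morula against 8-cell) in SPIA fell outside the threshold without 020816_07, 020816_08, 022916_01 or 022916_03 and in the subsets by code, depth or cumulus markers, and in SoLo without 020816_07, 020816_08 or 022916_01 (0.92 to 2.05 over all libraries left out). In SPIA IDH3A and GPD2 did so by voom.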

Other observations

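Expanded blastocysts of SPIA differed more in PDHA1 (coefficient of variation 48.4% over 14 libraries) than in PDHB (19.1%), and in SoLo as well (38.6% and 16.3% over 6). These shares are descriptions, with no test. The 8 Y-linked genes looked at (DDX3Y, EIF1AY, USP9Y, UTY, KDM5D, ZFY, RPS4Y1 and RPS4Y2) were not all high or all low in every embryo. Blastocyst 112415_04 had a sum of 112 CPM with RPS4Y1 at 3.85 CPM and PDHA1 at 423 CPM, and 111715_03 had a sum of 39.8 CPM with PDHA1 at 317 CPM. Morula 022916_01 had sums of 51.7 CPM in SPIA and 65.1 CPM in SoLo with PDHA1 at 419 and 291 CPM. The 8-cell embryo 020816_09 had 79.0 CPM of USP9Y beside 0.091 CPM of RPS4Y1.

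Each of the 11 embryos with a library in both kits was on the same side of 10 CPM of RPS4Y1 in both. Of the SPIA libraries of code 111215, 01 and 02 had 195 and 185 CPM and 03 had 0.276 CPM, while both SoLo libraries of that code had 169 CPM.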
